A study of Mus musculus with 21 samples.

Results

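The 207 genes described here are the intact V1R vomeronasal receptor genes of the mouse, chosen by name as every entry called Vmn1r followed by a number, out of 55335 gene identifiers in each library. The 207 identifiers carry 206 symbols, because Vmn1r216 stands for a pair of identifiers of which one lies inside the other. V1R genes encode receptors with a bundle of membrane-spanning helices that couple to G proteins and detect pheromones and other small odorants. They are used in the sensory neurons of the vomeronasal organ, where each neuron expresses one receptor gene and signals through the channel Trpc2 and the G protein subunit Gnai2. They are presumed silent in the ovary, and their values describe what such genes look like in these libraries.

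The study compared oocytes and granulosa cells of ICR mice by RNA sequencing after human umbilical cord mesenchymal stem cells (UC-MSCs) were placed under the ovarian capsule. Young mice were 6 to 8 weeks old and Aged mice were 18 months old, and neither received cells. The other 3 groups were mice of 18 months, sampled 3 weeks after transplantation of UC-MSCs that were unsorted (Aged + Unsorted) or sorted for a high or a low level of the surface receptor LRP1 (Aged + LRP1high and Aged + LRP1low). Oocyte libraries numbered 3 Young, 2 Aged, 2 Aged + Unsorted, 3 Aged + LRP1high and 2 Aged + LRP1low, and granulosa cell libraries numbered 1, 2, 1, 3 and 2 in the same order. The labels call the libraries biological replicates and say nothing of how many animals or cells each holds, so p-values measure the spread between these libraries only. All transplanted groups were set against the same 2 Aged libraries of their cell type, so those comparisons share them.

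A gene was listed when its deposited value was above 0. Levels are FPKM, the fragments on a gene relative to its length and to the total of the library, which allows genes of different length to be compared. The depth, computed from the deposited coverage and FPKM, spanned 0.278 to 3.40 gigabases of aligned sequence for oocytes and 0.335 to 1.49 for granulosa cells. On a gene of 1 kilobase, a single read of 150 bases was therefore worth an FPKM between 0.0441 (oocyte Young replicate 3) and 0.540 (oocyte Aged + LRP1low replicate 2). An FPKM of a low gene thus does not stand for the same number of reads in each library.

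The cell type on the label was checked first. Over 10 oocyte markers, among them the zona pellucida genes and Gdf9, the median FPKM was 84.9 to 1001 in 8 of the 12 oocyte libraries. It was 0.892 in Young replicate 1, 11.6 in Aged replicate 1, and 5.02 and 7.77 in the 2 Aged + LRP1low libraries, so these 4 libraries stood apart from the others with the oocyte label. Among granulosa cell libraries the same median was 0 to 4.36, except in Aged + Unsorted, which had 800 and went against its label. Over 10 granulosa and cumulus cell markers the median was 74.9 in the Young granulosa library, 21.4 in Aged + LRP1high replicate 3 and at most 1.93 in the other granulosa cell libraries. Granulosa cell libraries also differed in the summed FPKM of 6 luteal markers. It was 5660 in Aged + LRP1low replicate 1, 1789 in Aged + LRP1high replicate 1 and 1030 in Young. The others had at most 87.6, with 0.742 and 2.07 in the 2 Aged libraries. Reads of the gene Gm10800 took 49.5% of the aligned bases in oocyte Young replicate 1 and up to 62.3% in granulosa cells (Aged + LRP1high replicate 2).

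Some V1R genes are near copies of one another, and the letters of a few show why reads cannot always be given to 1 gene. On GRCm38 (GENCODE M21), 103 of the 207 are on chromosome 7, 51 on chromosome 6, 35 on chromosome 13, 14 on chromosome 17, and 2, 1 and 1 on chromosomes 4, 1 and 18. Vmn1r132, Vmn1r139, Vmn1r112 and Vmn1r157 are single-exon genes of 894 coding bases each that were chosen after their values were seen, because their sum was a large share of the V1R sum in a few libraries. Their bases 18 to 137 are printed in the direction of the transcript, and the capitals mark the 3 positions of these 120 at which the 4 are not all the same. The windows are on the plus strand at chr7:21614109-21614228, chr7:22096884-22097003, chr7:20771202-20771321 and chr7:22761714-22761833, in the order of the lines.
Vmn1r132: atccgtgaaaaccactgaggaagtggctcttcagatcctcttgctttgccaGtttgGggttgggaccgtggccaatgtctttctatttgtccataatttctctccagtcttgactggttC
Vmn1r139: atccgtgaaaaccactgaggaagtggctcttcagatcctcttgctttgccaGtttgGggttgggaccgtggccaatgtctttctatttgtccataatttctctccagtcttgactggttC
Vmn1r112: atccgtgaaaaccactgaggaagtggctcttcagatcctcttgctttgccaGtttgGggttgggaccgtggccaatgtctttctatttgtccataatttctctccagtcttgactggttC
Vmn1r157: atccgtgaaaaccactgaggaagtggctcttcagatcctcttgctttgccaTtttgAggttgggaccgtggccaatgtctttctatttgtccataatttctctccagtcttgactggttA

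Over the whole transcript Vmn1r132 and Vmn1r139 were identical, and the 4 differed at 6 of 894 positions. The 3 members with the highest mean in oocytes (Vmn1r202, Vmn1r171 and Vmn1r85) and Vmn1r17, which was called in a pair of comparisons, are shown as the genes whose single values are discussed most. The first 90 coding bases of these 4 genes are printed with the start codon in capitals. The last 37 printed bases of Vmn1r171 differ at 2 positions from the first 37 of the windows above, so this stretch is shared with the near-identical genes apart from those positions. They lie at chr13:22502156-22502245 (minus strand), chr7:23632352-23632441 (plus strand), chr7:13085126-13085215 (minus strand) and chr6:57361289-57361378 (minus strand).
Vmn1r202: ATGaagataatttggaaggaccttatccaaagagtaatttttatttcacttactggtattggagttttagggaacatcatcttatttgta
Vmn1r171: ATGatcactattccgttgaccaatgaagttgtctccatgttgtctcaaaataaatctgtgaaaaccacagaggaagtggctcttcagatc
Vmn1r85: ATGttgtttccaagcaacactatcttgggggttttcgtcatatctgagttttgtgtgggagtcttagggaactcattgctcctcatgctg
Vmn1r17: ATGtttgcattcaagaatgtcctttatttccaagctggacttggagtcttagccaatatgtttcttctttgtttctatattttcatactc

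The number of V1R genes listed ranged from 20 to all 207, and libraries of the same oocyte group often differed widely. In oocytes, 194, 20 and 42 were listed in the 3 Young libraries, 172 and 54 for Aged, 51 and 37 in Aged + Unsorted, 37, 161 and 100 in Aged + LRP1high, and 207 and 204 in Aged + LRP1low. The Young group therefore held both the library with the fewest listed genes (replicate 2) and, outside Aged + LRP1low, the one with the most (replicate 1). Listed counts averaged 85.3 ± 94.7 (SD, n = 3) for Young, 113 ± 83.4 (n = 2) for Aged, 44.0 ± 9.90 (n = 2) in Aged + Unsorted, 99.3 ± 62.0 (n = 3) in Aged + LRP1high and 205.5 ± 2.12 (n = 2) in Aged + LRP1low. The Young, Aged and Aged + LRP1high libraries overlapped.

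In granulosa cells, most libraries listed a large part of the family at low levels. The Young library listed 75, the 2 Aged listed 175 and 178, Aged + Unsorted listed 165, the 3 Aged + LRP1high listed 148, 185 and 182, and the 2 Aged + LRP1low listed 83 and 172. Aged + LRP1low replicate 1 stood below the other libraries of aged mice. An FPKM of at least 1 was reached by 0 genes in the Young library and by 5 to 21 in the others, except 78 in Aged + LRP1high replicate 1.

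Levels followed the listed counts only in part. In oocytes, the mean FPKM of the 207 was 0.544, 0.0378 and 0.0884 for Young, 2.81 and 0.788 for Aged, 0.661 and 0.0918 for Aged + Unsorted, 0.0418, 0.118 and 0.0396 in Aged + LRP1high, and 3.07 and 2.82 in Aged + LRP1low. Aged replicate 1 and both Aged + LRP1low libraries thus lay above the other 9 oocyte libraries. In these 3 libraries 139, 200 and 183 genes reached 1 FPKM, against 0 to 38 in the other oocyte libraries. Aged + LRP1high replicate 2 listed 161 genes and had none at 1 FPKM. In granulosa cells the mean was 0.0684 for Young, 0.346 and 0.345 for Aged, 0.260 in Aged + Unsorted, 0.968, 0.326 and 0.399 in Aged + LRP1high, and 0.304 and 0.362 in Aged + LRP1low. Aged + LRP1high replicate 1 stood above the other 8, and the Young library below them. V1R genes took between 0.00255% (oocyte Aged + LRP1high replicate 1) and 0.280% (oocyte Aged + LRP1low replicate 1) of the aligned bases. In bulk RNA, fewer cells of a type and less RNA per cell cannot be told apart, and a level relative to the library total moves with both.

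**Figure D1:**
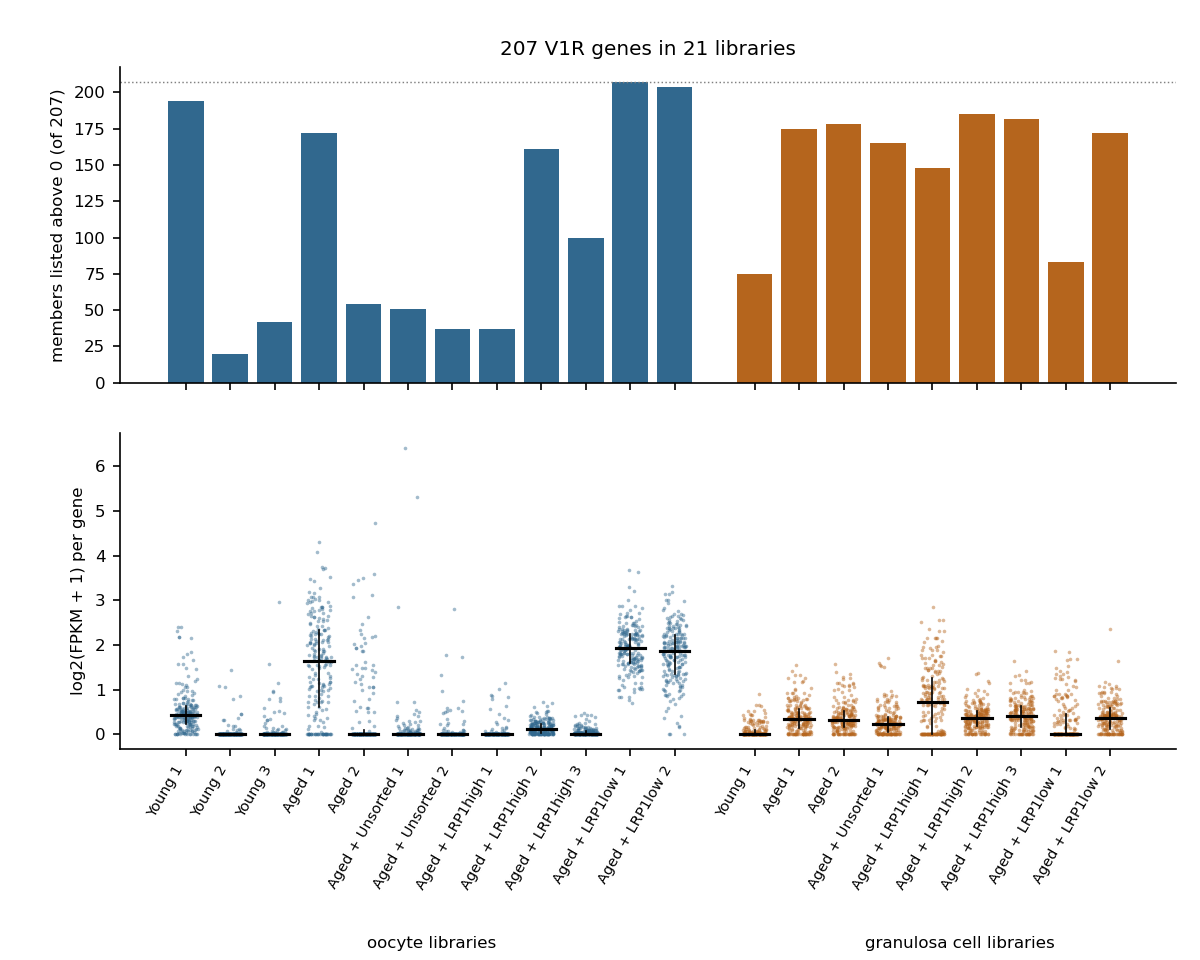
The upper plot gives the number of the 207 V1R genes listed above 0 in each of 12 oocyte (blue) and 9 granulosa cell (brown) libraries, with a dotted line at 207, and the lower plot gives each gene as a point on the log2(FPKM + 1) scale with the median (thick line) and quartiles (thin line). Oocyte Aged replicate 1 and both Aged + LRP1low libraries have medians of 2.12, 2.81 and 2.68 FPKM, while the other oocyte libraries have medians of 0 to 0.346.

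In the 2 Aged + LRP1low oocyte libraries the family was nearly complete and evenly spread over its members. Quartiles of the 207 FPKM values were 2.02 and 3.78 in replicate 1 and 1.56 and 3.70 in replicate 2. At least 1 FPKM was reached in both libraries by 178 genes. The lowest value in replicate 1 was 0.628 (Vmn1r113), and 3 genes were listed at 0 in replicate 2 (Vmn1r33, Vmn1r113 and Vmn1r123). These are the libraries with the least depth among oocytes, at 0.515 and 0.278 gigabases, and 93.9% and 78.1% of all gene identifiers were listed in them. The part of depth in these values was not tested.

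A few libraries owed their V1R sum to a few genes. In oocyte Aged + Unsorted replicate 1, Vmn1r202 had an FPKM of 84.7, which was 61.9% of the summed FPKM of 137, and the 5 highest genes made up 95.8%. Its highest value in any other library was 3.01 (oocyte Aged + LRP1low replicate 1). Vmn1r202 lies on chromosome 13 at 22497750 to 22505381 on the minus strand, and the other Aged + Unsorted oocyte library had 0.237. Vmn1r171 had 38.9 in the same library, 4.59 in Aged replicate 2, and 3.61 and 2.78 in Aged + LRP1low. Vmn1r85 had 25.7 in oocyte Aged replicate 2 against 2.34 in Aged replicate 1, and its next highest value was 5.26 in Aged + LRP1low replicate 2. This gene overlaps Gm4270 and Gm45436 in the annotation. For each of these 3 genes a single library therefore set the group mean.

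The next genes by oocyte mean followed the libraries that were high for the whole family. Vmn1r59 had 12.4 in Aged replicate 1 and 8.33 and 8.99 in Aged + LRP1low, against at most 2.32 in the other oocyte libraries. Vmn1r14 had 16.1 in Aged replicate 1 and 8.79 and 6.14 in Aged + LRP1low, and at most 0.514 elsewhere in oocytes. Aged replicate 2 did not share these levels, with 0.408 for Vmn1r59 and 0 for Vmn1r14. The highest single value of a gene came from Aged + LRP1low replicate 1 for 67 of the 207, from Aged replicate 1 for 60, from Aged + LRP1low replicate 2 for 53 and from Aged replicate 2 for 11. Of the 207, 14 reached 10 FPKM in some library and none did so in more than 1.

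In granulosa cells the means were highest for Vmn1r91 (1.09), Vmn1r181 (1.03), Vmn1r176 (0.946), Vmn1r124 (0.933) and Vmn1r76 (0.931). Vmn1r181 had 6.21 in Aged + LRP1high replicate 1, and at most 1.22 in the other granulosa cell libraries. Vmn1r176 had 4.88 in the same library and 1.66 in Aged + LRP1low replicate 1. Vmn1r124 had 4.12 in Aged + LRP1low replicate 2 and 0 in Aged + LRP1low replicate 1. Vmn1r91 was spread more evenly, from 0.253 in Young to 2.87 in Aged + LRP1high replicate 1, with 0.775 and 0.437 in Aged. Vmn1r76 ranged from 0.0505 in Young to 2.12 in Aged + LRP1high replicate 3.

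No V1R gene was listed in all 21 libraries and none was at 0 in all of them. A gene was listed in 3 to 20 libraries, with a median of 13. Vmn1r233, Vmn1r43 and Vmn1r229 were listed in 20 and Vmn1r91 and Vmn1r71 in 19. Vmn1r233 was at 0 only in oocyte Young replicate 2, Vmn1r43 only in granulosa Young, and Vmn1r229 only in oocyte Aged replicate 2. At the other end, outside the rule for named genes, Vmn1r113, Vmn1r119, Vmn1r120 and Vmn1r151 were listed in 3 libraries and Vmn1r93 in 4, and all 5 were at 0 in every granulosa cell library.

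**Figure D2:**
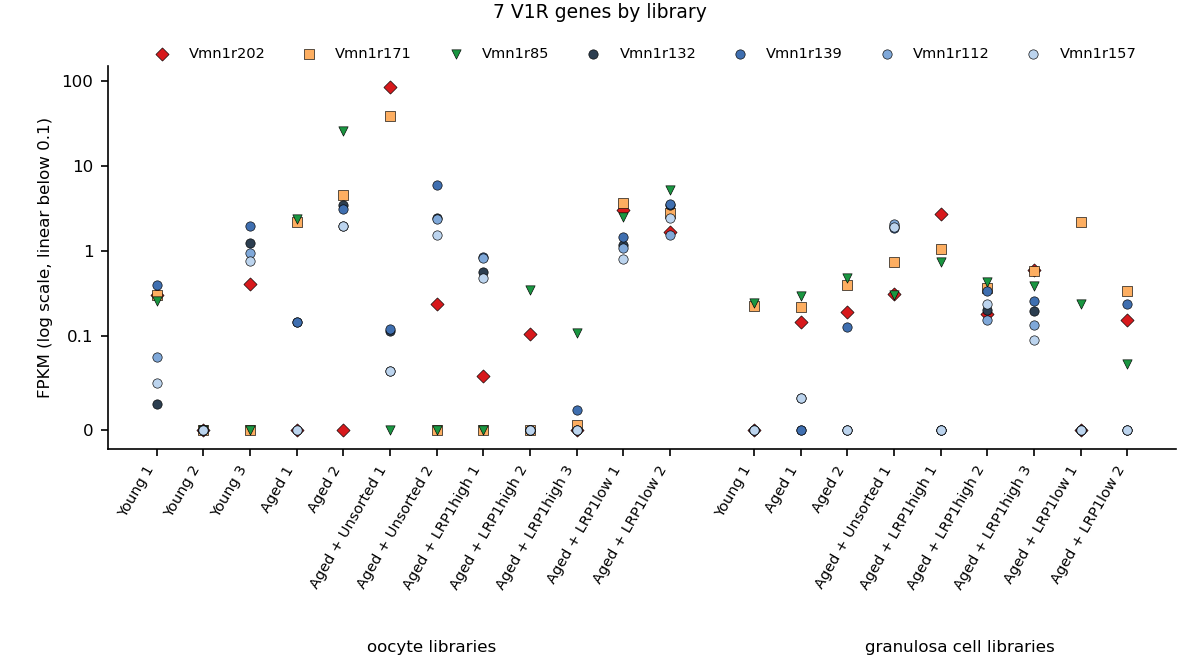
FPKM (log scale, linear below 0.1) of Vmn1r202, Vmn1r171, Vmn1r85 and the 4 near-identical genes Vmn1r132, Vmn1r139, Vmn1r112 and Vmn1r157 in each library, with oocyte libraries to the left and granulosa cell libraries to the right. Vmn1r202 reaches 84.7 and Vmn1r171 38.9 in oocyte Aged + Unsorted replicate 1, Vmn1r85 reaches 25.7 in oocyte Aged replicate 2, and the 4 near-identical genes lie between 1.53 and 6.02 in oocyte Aged + Unsorted replicate 2.

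The members differ in length and in how much of their sequence another gene shares. Genes were split by the share of their 50-base words found in another annotated gene into 57 copied (at least 50%), 99 unlike (under 10%) and 51 between. Copied genes had a median exon length of 924 bases, most unlike genes were longer (median 5315 bases), and 50 of the 57 copied genes lay on chromosome 7 between 20138123 and 23866449. Sharing and length therefore cannot be told apart here. The share listed was lower for copied than for unlike genes in 17 of 21 libraries, for example 20 of 57 against 86 of 99 in granulosa Aged + LRP1high replicate 1 and 0 of 57 against 16 of 99 in oocyte Young replicate 2. The share of copied genes was the higher one in oocyte Young replicate 3 (24 of 57 against 12 of 99), Aged + Unsorted replicate 2 (19 against 13) and Aged + LRP1high replicate 1 (20 against 10). In oocyte Aged + LRP1low replicate 1 both classes were listed in full.

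**Figure D3:**
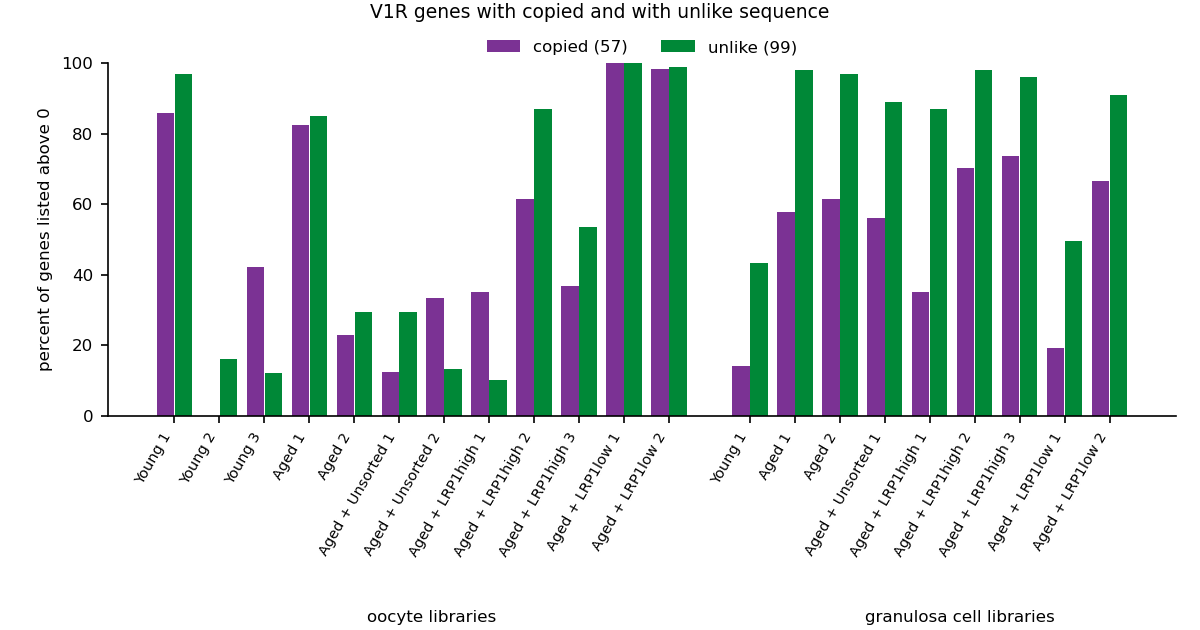
Percent of copied (57, purple) and unlike (99, green) V1R genes listed above 0 in each of the 21 libraries. Purple bars exceed green bars in oocyte Young replicate 3, Aged + Unsorted replicate 2 and Aged + LRP1high replicate 1, both are at 100% in oocyte Aged + LRP1low replicate 1, and green bars are higher in the other 17.

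Grouped by length, 16 of the 54 genes under 1000 bases were listed in granulosa Aged + LRP1high replicate 1, against 54 of the 58 genes of at least 6000 bases. In granulosa Aged replicate 1 these counts were 30 and 56. A longer gene collects more reads at the same FPKM. However, 50 of the 54 short genes were copied genes, against 2 of the 58 long ones. The part of length in these counts was not tested. In oocyte Aged + LRP1low replicate 1, all genes were listed at every length, with a mean FPKM of 2.21 under 1000 bases and 3.18 from 6000 bases.

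The 4 near-identical genes printed above made up a large share of the V1R sum in a few libraries, although the highest single gene was one of them only in oocyte Aged + Unsorted replicate 2. Vmn1r139, Vmn1r132, Vmn1r112 and Vmn1r157 had 6.02, 2.44, 2.34 and 1.53 FPKM in oocyte Aged + Unsorted replicate 2, where their sum of 12.3 was 64.8% of the V1R sum. In granulosa Aged + Unsorted, the library with oocyte markers, the same genes had 1.85, 1.93, 2.05 and 1.89. In oocyte Young replicate 3 they had 1.98, 1.22, 0.950 and 0.750, and in Aged replicate 2 they had 3.14, 3.49, 1.96 and 1.96. Their sums made up 26.8% of the V1R sum in Young replicate 3, 31.3% in Aged + LRP1high replicate 1 and 14.4% in granulosa Aged + Unsorted. In both Aged + Unsorted libraries named here none of the other 53 copied genes was above the lowest of the 4. The 4 were at 0 in 5 libraries, oocyte Young replicate 2 and Aged + LRP1high replicate 2, and granulosa Young, Aged + LRP1high replicate 1 and Aged + LRP1low replicate 1. Reads of one of these genes cannot be told from reads of another over most of their length.

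Members with the same transcript often received different values, though equal ones also occurred, as for Vmn1r148 and Vmn1r100 (3.70 FPKM each in oocyte Aged + LRP1low replicate 2). The family holds 6 sets of genes with identical sequence, with 14 genes in all, such as Vmn1r132 with Vmn1r139 and Vmn1r131 with Vmn1r138 and Vmn1r166. Over 126 combinations of a set and a library, 39 had every gene at 0 and 71 had every gene above 0, while in 16 some genes were listed and an identical one was at 0. Where all were above 0, the highest was a median of 1.56 times the lowest. The largest ratio was 14.3, between Vmn1r132 and Vmn1r139 in oocyte Young replicate 1, with 0.0274 and 0.390 FPKM. The value of a single copied gene is therefore uncertain by a factor that identical neighbours show directly.

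The order of the 207 genes by level was only loosely shared between libraries, which is given as a description. Spearman's rho across the genes, which share depth and length effects within a library, was -0.134 to 0.515 between libraries that share group and cell type (14 pairs, median 0.121). For the 196 other pairs it was -0.240 to 0.585 (median 0.108). The 2 Aged granulosa libraries had 0.515, and the 2 Aged + LRP1low oocyte libraries 0.303. Over the 99 unlike genes alone these 2 values were 0.318 and 0.139.

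Other chemosensory receptor families were measured in the same libraries, and olfactory receptors lay nearest to V1R genes. The mean V1R FPKM was 0.502 to 1.45 times that of 1108 olfactory receptor genes, with a median ratio of 0.882 over the 21 libraries. Against 122 V2R genes, the other vomeronasal receptor family, the ratio was 0.219 to 5.19 (median 0.955), and against 35 bitter taste receptor genes 0.763 to 102 (median 1.298). In the 2 Aged + LRP1low oocyte libraries olfactory receptors had a mean FPKM of 3.00 and 2.69, V2R genes 2.74 and 2.53, and bitter taste receptors 3.44 and 3.67, beside 3.07 and 2.82 for V1R genes. The high V1R level of these libraries was thus shared by all 3 of the other families.

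**Figure D4:**
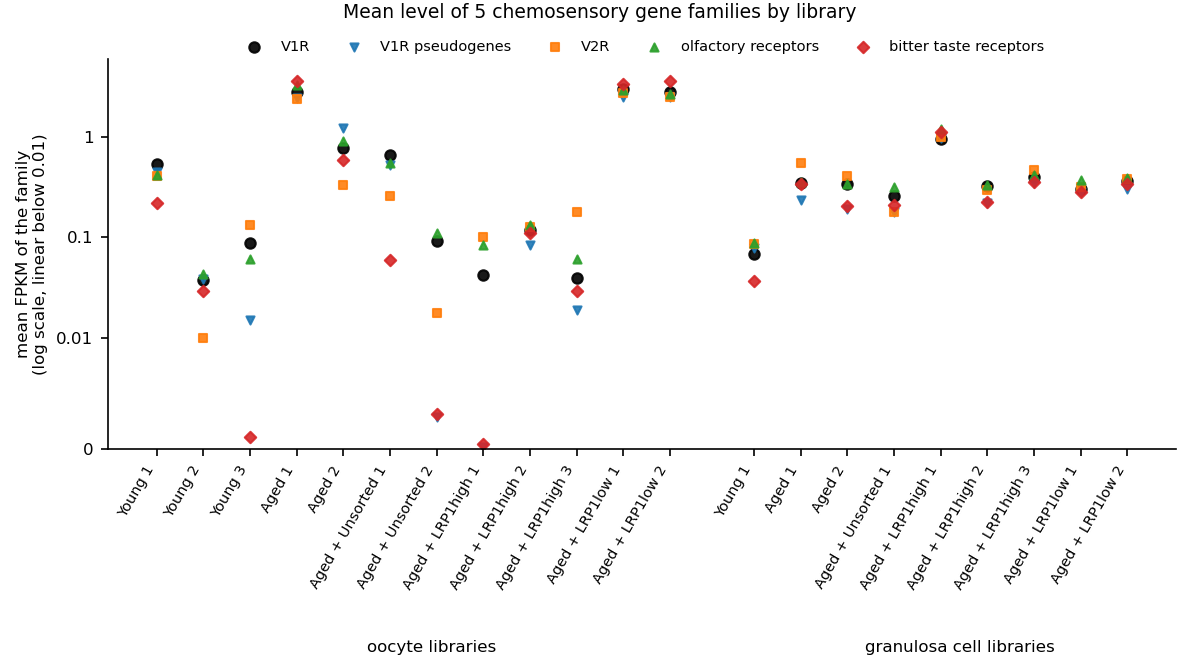
Mean FPKM (log scale, linear below 0.01) in each library of V1R genes (black circles), V1R pseudogenes, V2R genes, olfactory receptors and bitter taste receptors. V1R means lie near those of the olfactory receptors in every library, with V1R means from 0.0378 (oocyte Young replicate 2) to 3.07 (oocyte Aged + LRP1low replicate 1).

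The V1R level was set beside the markers of the labelled cell and of other cells. The 3 oocyte libraries with the highest V1R means had oocyte marker medians of 11.6, 5.02 and 7.77 FPKM, and Young replicate 1, the remaining oocyte library with a low marker median (0.892), had the highest V1R mean of the Young group (0.544). The reverse did not hold throughout, since Aged replicate 2 and Aged + Unsorted replicate 1 had V1R means of 0.788 and 0.661 beside marker medians of 716 and 647. Markers of other ovarian cell types were also high in the 3 libraries with the highest V1R means. Over 6 stromal markers the summed FPKM was 32.6 to 38.8 there against at most 7.06 in the other 9 oocyte libraries, over 4 endothelial markers it was 23.1 to 26.1 against at most 11.0, and over 6 luteal markers 23.1 to 33.1 against at most 19.2. In each of the 3 libraries all 4 endothelial and at least 5 of the 6 stromal and 5 of the 6 luteal markers were listed. The sum of 7 immune markers was 38.0 to 41.6 there and 0 to 41.9 in the others, where Aged replicate 2 was the highest. Granulosa and cumulus cell markers (38.5 to 58.2 against 17.6 to 264) and red blood cell markers (0 to 25.6 against 0 to 28.2) did not set the 3 apart. Protein-coding genes as a whole were also higher in the 3, with medians of 4.08, 5.22 and 3.81 FPKM against 0 to 1.16 in the other 9. Marker medians in the 3 were 4.30 to 6.04 (stromal), 5.81 to 6.54 (endothelial) and 4.02 to 4.47 (luteal). These markers were thus near the level of protein-coding genes in general. The part of the cells or RNA behind these marker levels in the V1R values was not tested.

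**Figure D5:**
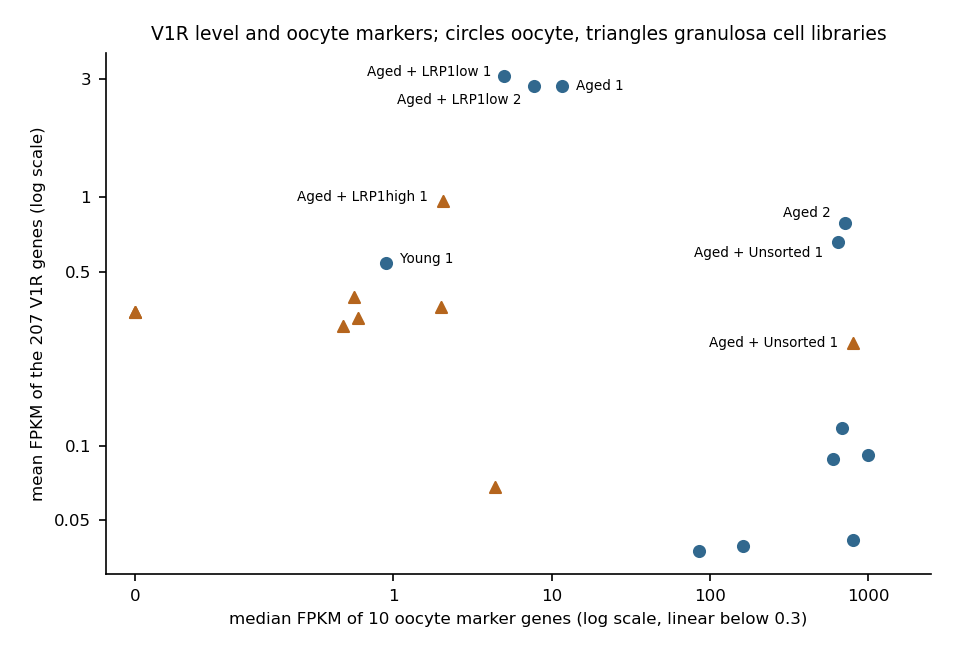
Mean V1R FPKM (log scale) against the median FPKM of 10 oocyte markers (log scale, linear below 0.3) for oocyte (blue circles) and granulosa cell (brown triangles) libraries. Oocyte Aged replicate 1 and both Aged + LRP1low libraries lie at the top with marker medians of 5.02 to 11.6, and granulosa Aged + Unsorted lies among the oocyte libraries with a marker median of 800.

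The markers of vomeronasal neurons were checked beside the receptors. Trpc2, the channel that vomeronasal signalling depends on, was listed at 0 in all 21 libraries. Xntrpc, a longer gene annotated over the same place, was listed in 13 libraries with up to 4.50 FPKM (oocyte Aged + LRP1low replicate 1), and how reads were divided between them was not tested. Omp, a protein of mature olfactory and vomeronasal neurons, had 1.03 in oocyte Young replicate 1, 5.30 in Aged replicate 1, 6.00 and 3.39 in Aged + LRP1low and at most 0.172 in the other oocyte libraries. The libraries with Omp above 1 were thus the 4 with low oocyte markers. Among oocyte libraries these 4 also had the highest medians over protein-coding genes, from 1.16 (Young replicate 1) to 5.22 FPKM (Aged + LRP1low replicate 1). Of the 5 vomeronasal neuron markers (Omp, Trpc2, Gnai2, Gnao1 and Gng8), 1 to 4 were listed in a library, with a summed FPKM of 0.918 to 187 for oocytes and 0.647 to 28.3 for granulosa cells. Most of the highest sums was Gnai2, which many cell types use, with 185 in oocyte Aged + LRP1high replicate 2.

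Differences between groups were tested gene by gene with limma on log2(FPKM + 1), with p-values adjusted by the Benjamini-Hochberg method over all genes tested in the cell type. A gene was called at an adjusted p under 0.05 and a fold over 1.5, and it was tested if its mean FPKM over the cell type reached 1. That limit let in 56 of the 207 V1R genes in oocytes and 2 in granulosa cells, mostly by way of the libraries in which they were high, so the counts of called genes do not speak for the family. Changes are given on the log2(FPKM + 1) scale, which understates the change of low genes.

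Between Aged and Young oocytes no V1R gene was called, and 0.0964% of all genes tested were. The smallest adjusted p was 0.0718. At an unadjusted p under 0.05, 14 of the 56 were higher in Aged and none lower, beside 8.65% of all genes tested in either direction. Of all 207, 30 (14.5%) had both Aged libraries above the 3 Young ones, against 6.27% of all genes, and none had them below. The median change of the 207 was 0.71, beside 0.16 for all genes, many of which were at 0, and 0.94 for all genes tested. These counts rested on single libraries, since 43 of 58 V1R genes tested were called without Aged replicate 2, 5 of 63 without Young replicate 1 and 4 of 29 without Aged replicate 1, beside 33.0%, 2.87% and 3.79% of all genes tested. Without both libraries that had low oocyte markers (Young replicate 1 and Aged replicate 1), 9 of 30 tested V1R genes were called, all higher, beside 8.20% of all genes tested. The lone Aged library of such a fit is assumed to vary like the other groups. Its values also helped decide which genes reached the mean FPKM of 1, so nothing is read from the shares called in such fits, here or below.

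Against Aged oocytes, Aged + LRP1high had no V1R gene called, beside 0.771% of all genes tested, with a smallest adjusted p of 0.05004 that lay just above the threshold. At an unadjusted p under 0.05, 14 were lower and none higher, beside 10.9% of all genes tested. In 41 of the 207 (19.8%) all 3 Aged + LRP1high libraries were below both Aged libraries, against 7.19% of all genes, and in none were they above. The median change was -0.86, beside -0.01 for all genes and -1.05 for all genes tested. Without Aged replicate 2, 47 of 58 V1R genes tested were called, without Young replicate 1 there were 8 of 63, and without Aged replicate 1 there were 5 of 29, beside 39.5%, 4.12% and 4.59% of all genes tested. Without the Young and Aged libraries of low oocyte markers 10 of 30 were called, all lower, beside 8.49% of all genes tested.

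Aged + Unsorted oocytes gave a like picture against the same 2 Aged libraries. No V1R gene was called and 0 (0% of all genes tested) were called in the whole table, with a smallest adjusted p of 0.0990 among V1R genes. At an unadjusted p under 0.05, 13 V1R genes were lower and 1 higher, beside 8.74% of all genes tested. In 40 of the 207 (19.3%) both Aged + Unsorted libraries were below both Aged ones, against 6.69% of all genes. The median change was -0.89, beside 0.00 for all genes and -0.86 for all genes tested. In fits without Aged replicate 2, 47 of 58 V1R genes tested were called, beside 36.9% of all genes tested. Without Aged replicate 1, Young replicate 1 and Aged + Unsorted replicate 2 in turn, 4 of 29, 4 of 63 and 1 of 69 were called, beside 3.73%, 2.16% and 0.183%. Without the Young and Aged libraries of low oocyte markers 9 of 30 were called, all lower, beside 7.65% of all genes tested.

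Between Aged + LRP1low and Aged oocytes, Vmn1r17 and Vmn1r64 were called, both higher. Both reached the mean FPKM of 1 only by way of the Aged + LRP1low libraries, so they were bound to differ and the calls are given as a description. Vmn1r17 had 11.5 and 6.98 FPKM in Aged + LRP1low and was listed at 0 in both Aged libraries, with 0.913 in Young replicate 1, 0.0964 in Aged + LRP1high replicate 3 and 0 in the other oocyte libraries. Its change was 3.32 (SE 0.65, adjusted p = 0.0421, limma). Vmn1r64, a single-exon gene on chromosome 7 at 5883580 to 5884542, had 5.90 and 5.78 in Aged + LRP1low and 1.18 in Young replicate 1, and was listed at 0 in the other 9 oocyte libraries. Its change was 2.77 (SE 0.65, adjusted p = 0.0459, limma). For both genes the Aged + LRP1low libraries lay above all 10 others. All genes tested were called at 3.17% in either direction and 3.09% in the higher one.

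At an unadjusted p under 0.05, 5 V1R genes were higher and 1 lower in Aged + LRP1low than in Aged, beside 14.1% of all genes tested. Both Aged + LRP1low libraries were above both Aged ones in 92 of the 207 (44.4%), against 36.1% of all genes. The median change was 0.88 and that of all genes was 0.90, so V1R genes shifted as the rest of the table did. After quantile normalization, which gives every library the same distribution of values, the median of the tested V1R genes turned to -0.36 and no V1R gene was called. The share called and the median change of all genes in that fit are not given here. The turn is therefore not read as particular to V1R genes. No V1R gene was called without any one of Young replicates 2 and 3 and of the Aged + Unsorted, Aged + LRP1high and Aged + LRP1low libraries, beside 0% of all genes in each of these fits, while 10 of 29 and 4 of 58 were called without Aged replicates 1 and 2, beside 22.7% and 10.4%. Without Young replicate 1 and Aged replicate 1 together, 16 of 30 tested V1R genes were called, 13 higher and 3 lower, beside 39.6% of all genes tested.

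Between Aged + LRP1high and Aged + LRP1low oocytes, 19 of 56 V1R genes tested were called lower and none higher. Beside them, 26.0% of all genes tested were called in either direction and 24.8% were lower. Many of the 56 were tested by way of their high values in Aged + LRP1low, and 34 and 33 were left when replicate 1 or 2 of that group was left out, so nothing is read from the share of 19 in 56. The 5 with the largest changes were Vmn1r17 (-3.27, SE 0.59, adjusted p = 0.0192, limma), Vmn1r4 (-3.06, SE 0.98, adjusted p = 0.0445), Vmn1r59 (-3.03, SE 0.92, adjusted p = 0.0404), Vmn1r14 (-3.02, SE 0.97, adjusted p = 0.0452) and Vmn1r64 (-2.77, SE 0.59, adjusted p = 0.0199). Vmn1r4 had 0, 0.0921 and 0.181 FPKM in Aged + LRP1high and 11.8 and 5.44 in Aged + LRP1low. Over the 19 the change was -3.27 to -1.88, the highest FPKM in an Aged + LRP1high library was 0.620, and values in Aged + LRP1low were 2.21 to 11.8. The 19 held 10 unlike, 8 between and 1 copied gene, where the 56 tested held 27, 18 and 11.

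At an unadjusted p under 0.05, 43 V1R genes were lower in Aged + LRP1high than in Aged + LRP1low and none was higher, beside 49.1% of all genes tested. In 203 of the 207 (98.1%) all 3 Aged + LRP1high libraries were below both Aged + LRP1low libraries, against 60.7% of all genes. The median change was -1.80, beside -1.53 for all genes. With quantile normalization the median of the tested V1R genes became 0.12 and none was called. The share of all genes called in that fit is not given here. The direction of the V1R change thus rested on the FPKM scale, on which most genes shifted. No V1R gene was called without any one of the Aged + LRP1high or Aged + LRP1low libraries, beside 0% of all genes tested in these fits, or 1.39% without Aged + LRP1low replicate 1. Without Aged replicate 2 there were 50 of 58 called and without Young replicate 1 there were 33 of 63, beside 53.4% and 34.4%. Both Aged + LRP1low libraries were among those with low oocyte markers, so no fit without them could be made, and 24 of 30 tested V1R genes were called without Young replicate 1 and Aged replicate 1, beside 51.3% of all genes tested.

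In granulosa cells only Vmn1r91 and Vmn1r181 could be tested, and neither was called in Aged + LRP1high or Aged + LRP1low against Aged, where 0% and 0% of all genes tested were called. Against Aged, Aged + LRP1high differed by 0.76 (SE 0.43, adjusted p = 0.458, limma) for Vmn1r91 and by 1.16 (SE 0.82, adjusted p = 0.466) for Vmn1r181. No V1R gene passed an unadjusted p of 0.05 by limma in either comparison, beside 8.51% of all genes tested with Aged + LRP1high and 3.79% with Aged + LRP1low. All 3 Aged + LRP1high libraries were above both Aged ones in 28 of the 207 (13.5%), against 25.4% of all genes, and the 2 Aged + LRP1low libraries were above in 18 (8.70%), against 12.1%. The libraries were below both Aged ones in 14 of the 207 (6.76%) with Aged + LRP1high and in 54 (26.1%) with Aged + LRP1low, against 2.55% and 8.91% of all genes. Median changes over the 207 were 0.09 and -0.03, beside 0.31 and 0.00 for all genes.

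The 3 Aged + LRP1high oocyte libraries were also set against the 3 granulosa cell libraries of the same treatment, with 25 V1R genes tested. None was called, beside 5.24% of all genes tested, with a smallest adjusted p of 0.392 (limma), and none passed an unadjusted p of 0.05, beside 16.1% of all genes. In 96 of the 207 (46.4%) the oocyte libraries were below the granulosa cell libraries, against 19.2% of all genes, and in none were they above. The median change was -0.46, beside -0.24 for all genes. Whether a treatment acted on V1R genes differently in the cell types was tested as an interaction for 25 genes, and limma called 0 both for Aged + LRP1high and for Aged + LRP1low (0% and 0% of all genes tested), with 8 and 1 at an unadjusted p under 0.05, beside 16.0% and 6.41% of all genes tested, and smallest adjusted p of 0.0881 and 0.342.

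A list of 20 genes that work beside the receptors in vomeronasal neurons or build those neurons was treated in the same way. Of the 19 tested in oocytes, 0 were called by limma between Aged and Young or between any transplanted group and Aged. Between Aged + LRP1high and Aged + LRP1low, 7 of 19 fell and Gnai2 rose by 4.12 (SE 1.23, adjusted p = 0.0386), where 24.8% of all genes tested fell and 26.0% were called in either direction. Those that fell were Ano1, Gnao1, Ano2, Ncam1, Plcb2, Rtp2 and Omp, from -3.60 (SE 1.12, adjusted p = 0.0424) for Gnao1, a G protein subunit used by V2R neurons, to -2.24 (SE 0.71, adjusted p = 0.0440) for Rtp2, a protein that carries odorant receptors to the membrane. The median change of the 19 was -2.24, beside -1.89 for all genes tested. Some of the 19 reached the mean FPKM of 1 in part by way of Aged + LRP1low. Omp, for example, had 6.00 and 3.39 FPKM there and at most 0.172 in Aged + LRP1high. Nothing is therefore read from the 7 of 19, and their p-values are a description. Of the 5 tested in granulosa cells, 0 were called in either comparison. Between Aged + LRP1high oocytes and granulosa cells, 4 of 15 were higher in oocytes (Meis2, Gnb1, Gnai2 and Tfap2e), by 4.91 to 5.69. Of all genes tested, 5.24% were called in either direction. In granulosa Aged + Unsorted, the library with oocyte markers, these genes had 113, 26.9, 25.4 and 145 FPKM in the same order.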

How the data were processed

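Values of 21 libraries were used. The submitters' processing notes name HISAT2 2.2.1 and StringTie 1.3.3b and the build mm9, but the coordinates of all 207 V1R genes match GENCODE M21 on GRCm38, as do those of 54577 of the 55335 identifiers. The labels name a stranded library kit and the study's methods name Smart-seq2, so whether strand was used is not given in the sources used here. The authors deposited coverage (mean read depth over a gene's exons), FPKM and TPM per gene, and counting intervals were not computed for lack of counts. Identifiers that occur more than once in a file were summed, none of them a V1R gene. Depth was taken from coverage divided by FPKM, as the median of 21693 single-exon genes. The read length of 150 bases is an assumption for scale. The deposited values hold no reads, so alignment to several copies could not be examined.

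V1R genes, lists and tests were chosen with earlier results of these data known. FPKM was analysed as log2(FPKM + 1) with limma 3.58.1 (lmFit and eBayes) under R 4.3.3, each cell type being fitted once with its groups together, with a minimum mean FPKM of 1, and Benjamini-Hochberg adjustment over all genes tested. The model was tested on simulated data. A gene was called at an adjusted p under 0.05 and a fold over 1.5, the study's criteria. Sequence sharing was counted in words of 50 bases against all GENCODE M21 transcripts with Python 3.11.15 and pandas 2.3.3. Named genes are the 5 with the highest mean FPKM in each cell type, the 5 listed in most libraries, up to 5 called genes with the largest changes in each direction and genes with the most alike sequence. Protein sequences were not used here, so likeness was taken from nucleotides. Alternatives were a pseudocount of 0.1, no filter, TPM, quantile normalization, eBayes with trend and robust settings, a replicate block and leaving out each library.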

Additional observations from a re-analysis of the deposited data

Results flagged for a closer look

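Vmn1r17 moved apart in the cell types when Aged + LRP1low was set against Aged. In oocytes both Aged + LRP1low libraries (11.5 and 6.98 FPKM) lay above both Aged libraries (0 and 0), a difference of means of 9.23 FPKM. In granulosa cells both Aged + LRP1low libraries were listed at 0, below the Aged libraries at 0.830 and 0.249. The difference between the cell types was 3.91 on the log2(FPKM + 1) scale (SE 0.94) with an unadjusted p of 0.000633 and an adjusted p of 0.342 by limma with Benjamini-Hochberg adjustment, so it failed the correction. The gene was picked from these same values and was tested only by way of the Aged + LRP1low oocyte libraries. Its p-values are therefore a description. The oocyte libraries of this group also had low oocyte markers, with medians of 5.02 and 7.77 FPKM, and their part in the difference was not tested.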

How the results depend on the processing

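Counts of called V1R genes are given for Aged against Young, then Aged + LRP1high, Aged + Unsorted and Aged + LRP1low against Aged, then Aged + LRP1high against Aged + LRP1low, all in oocytes, where the counts were 0, 0, 0, 2 and 19. They became 11, 15, 12, 54 and 162 with no filter on mean FPKM (all 207 genes tested), beside 1.59%, 2.05%, 1.60%, 21.8% and 42.5% of all genes. They were 11, 14, 8, 19 and 131 of 170 tested with TPM, beside 2.14%, 2.69%, 1.99%, 18.3% and 47.7%, and 14, 14, 14, 6 and 43 at an unadjusted p. With a pseudocount of 0.1 and with quantile normalization the last 2 counts were 0 and 0, and with trend and robust settings the last was 30 (36.1% of all genes). With the replicate number as a block the last 2 counts were 0 and 0. Shares of all genes called with that pseudocount, quantile normalization and the block are not given here. The share beside the count of 3 after rescaling below is not given either. Nothing is read from those counts about V1R genes. Deviations of same-numbered libraries from their group means had correlations of -0.436 to 0.441 in oocytes and -0.0761 to 0.256 in granulosa cells. In a group of 2 libraries these deviations mirror each other, so the correlations cannot show whether the number pairs libraries. Of 2 settings chosen after seeing the data, rescaling FPKM without the bases of Gm10800 gave 48 of 93 tested for the last comparison (29.8% of all genes) and 3 for the one before it, and leaving out the Young and Aged libraries of low oocyte markers gave 9, 10, 9, 16 and 24. Leaving out 1 library at a time gave 0 to 43, 0 to 47, 0 to 47, 0 to 10 and 0 to 50, where an arm left with 1 library is assumed to vary like the others. Granulosa cell counts and the count between cell types were 0 under every setting run. Of 141 refits of 7 changes of named genes, 66 lost the call and 0 turned direction. The 7 were picked as the largest called changes in these same data, so their kept direction is a description and no sign of robustness. The cause of the shifts in the counts was not tested. FPKM of a gene at under 1 read cannot be read as a level at depths of 0.278 gigabases, and the median change of all genes tested moved from -1.89 to -0.01 between FPKM and quantile normalization for Aged + LRP1high against Aged + LRP1low.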
